A study of Arabidopsis thaliana with 12 samples.

Results

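The response of GA-deficient ga-1 seedlings to the gibberellin GA3 was described across all genes on the array, by gene function and family. It rests on 6 of the 12 arrays of the study, 3 titled as ga-1 seedlings given GA3 and 3 titled as ga-1 seedlings given a mock treatment. All were 7 days old, light-grown and of the insertion line SALK_109115, and were treated for 1 h, with GA3 at 100 µM in the treated group. The other 6 arrays hold the triple receptor mutant gid1a-1 gid1b-1 gid1c-2, called gid1 here, at the same age and under the same treatments. Transcripts were measured on the Affymetrix ATH1 array, and the submitters describe the 3 arrays of a group as independent biological replicates. The free text of the mock samples mentions GA3, which contradicts their titles, and groups follow the titles. The ga-1 genotype is represented by 1 insertion line, and no wild-type arrays were analysed here.

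Gibberellins are plant hormones that promote germination, stem growth and flowering. The soluble GID1 receptors bind the active hormone and then DELLA proteins, which are repressors of growth. The F-box protein SLY1 marks the bound DELLA proteins for destruction, so a plant with little hormone keeps DELLA proteins at a high level. Genes that DELLA proteins raise in Arabidopsis include those of the receptors and of hormone synthesis, a feedback that adding hormone switches down. The series design asks which genes respond early to GA, and the comparison of GA3 with mock in ga-1 addresses this question.

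Each value is a MAS5 signal, a brightness on a linear scale that had been set to a common level on every array, and ga-1 arrays had median signals between 176.1 and 188.8. Of 22746 probe sets other than controls, 15922 passed a filter on low values and were tested with limma on log2 signals. A probe set is called, and said to have risen or fallen, where its Benjamini-Hochberg adjusted p was below 0.05. Only 8770 of the tested probe sets could be given 1 gene name, and 7550 of those carry a locus code alone, so every family count below covers a portion of the family. Signals of different probe sets are not on a common scale of abundance. Changes were compared within a probe set, except for summed marker signals, in which bright probe sets weigh most. The arrays hold whole seedlings, in which fewer cells of a type and less RNA per cell cannot be told apart. With 3 arrays in a group, precision is limited throughout by that number.

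Few genes changed within 1 h of GA3, and most of those that did went down. Over all 15922 tested probe sets the median log2 change was 0.009, and the middle of the distribution ran from -0.14 at the 25th percentile to 0.15 at the 75th. The tails were uneven, with the 1st percentile at -1.01 and the 99th at 0.73. Of all tested probe sets, 129 were called (0.81%), 109 that fell (0.685%) and 20 that rose (0.126%). Leaving out replicate 1, 2 or 3 of ga-1 mock gave 70, 66 or 70 calls, with 5, 4 or 13 rises. The 3 GA3 arrays lay wholly below the 3 mock arrays for 1142 probe sets (7.17%) and wholly above them for 1090 (6.85%), so by this looser reading the directions were nearly even.

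The falls were also larger than the rises. The 109 falls had a median log2 change of -1.12 and reached -4.27, and the 20 rises had a median of 0.85 and reached 1.55. At least 2-fold falls were called for 62 probe sets and at least 4-fold falls for 12. At least 2-fold rises were called for 5 probe sets, and none rose 4-fold or more. A change of 2-fold or more without a call was seen for 99 probe sets that were lower and 49 that were higher with GA3.

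**Figure D1:**
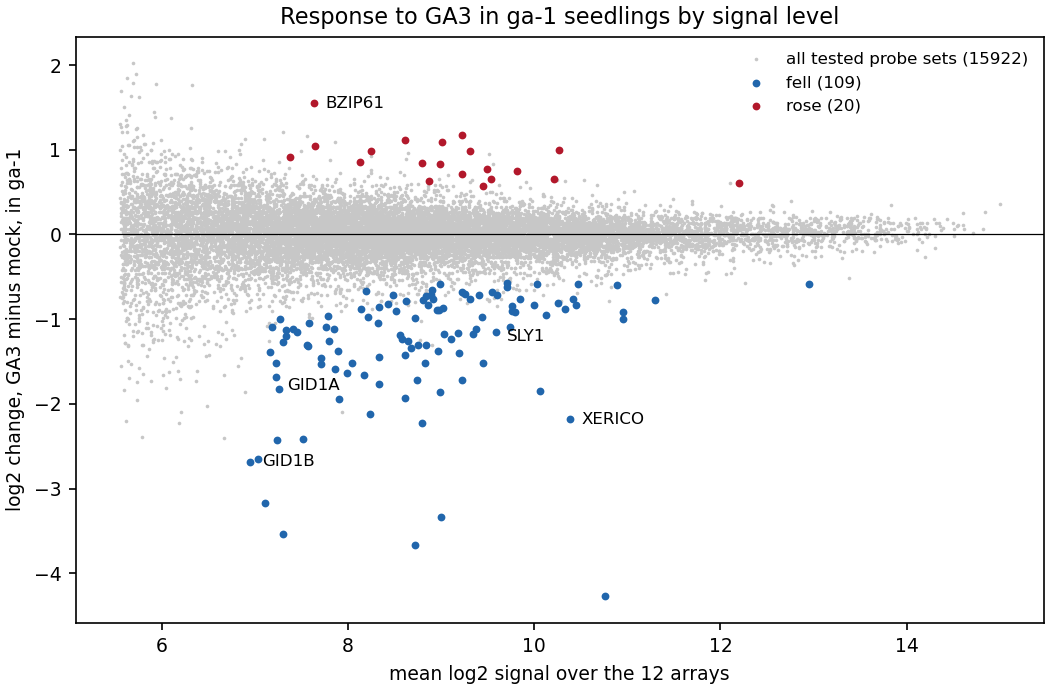
Log2 change between GA3 and mock arrays in ga-1 (vertical axis, GA3 minus mock, n = 3 each) against the mean log2 signal over the 12 arrays (horizontal axis), 1 point for each of 15922 tested probe sets. The 109 probe sets that fell (blue) reach -4.27 and the 20 that rose (red) reach 1.55, and the grey cloud of the rest narrows as the signal grows.

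The plot of change against signal level shows where calls could be made. Tested probe sets were ranked by mean log2 signal and divided into 10 equal bins. In the lowest bin the median SE of the log2 change was 0.44 and nothing was called, and in the second-lowest 1 probe set fell. In the highest bin the median SE was 0.12, and 2 probe sets fell and 1 rose. The 7 bins from the third to the ninth held 106 of the falls and 19 of the rises. The median log2 change of the bins lay between 0.00 and 0.04, so no level of signal moved as a whole.

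The mean signals of the arrays in a group were alike over the called probe sets. The mean log2 signal of the 109 that fell was 9.16, 9.12 and 9.17 in the mock arrays and 7.90, 7.78 and 7.87 in the GA3 arrays, in the order of the replicate numbers. That of the 20 that rose was 8.82, 8.83 and 8.99 in mock and 9.77, 9.89 and 9.64 with GA3. Since these probe sets were chosen on the same arrays, the separation and the likeness within groups describe the choice. They cannot show whether a single array carried a call. The gid1 arrays entered the choice only through the shared estimate of spread. They had means of 9.03 to 9.14 for the first set and 8.73 to 9.05 for the second, with mock and GA3 arrays overlapping in both sets.

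Among genes of GA perception, 2 of the 3 receptor genes and 1 of the 2 F-box genes fell. Of 12 listed genes 7 were tested, and 3 fell, where 0.685% of all tested probe sets fell. GID1B (AT3G63010), a GA receptor, had signals of 458, 540 and 544 in mock arrays and 87.6, 73.3 and 79.0 with GA3. The GA3 arrays all lay far below the mock arrays, a log2 change of -2.68 ± 0.24 (SE, limma adjusted p = 9.8e-06). GID1A (AT3G05120), a second receptor, had 686, 640 and 710 in mock and 209, 194 and 235 with GA3, a log2 change of -1.68 ± 0.22 (SE, adjusted p = 0.00059). SLY1 (AT4G24210) had 945, 886 and 927 in mock and 488, 348 and 418 with GA3, a log2 change of -1.15 ± 0.18 (SE, adjusted p = 0.0042). The groups of both genes were well apart.

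The remaining 4 tested genes of this list were not called. GID1C (AT5G27320), the third receptor, had 124, 99.4 and 79.1 in mock and 78.4, 115 and 91.0 with GA3, and the groups overlapped (log2 change -0.08 ± 0.29, SE). The receptor genes therefore differed among themselves in measured change, a difference that was not tested. SLY2 (AT5G48170), an F-box protein related to SLY1, had a log2 change of -0.42 ± 0.30 with overlapping groups (adjusted p = 0.82). SPY (AT3G11540) and SEC (AT3G04240), enzymes that attach sugars to DELLA proteins, had log2 changes of 0.04 ± 0.17 and 0.05 ± 0.13 (SE), each within its error. No gene of GA synthesis or inactivation on the list of 21 had a probe set with a single name.

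A list of genes that DELLA proteins are known to raise was lower as a group. Of 12 listed, 6 were tested, all 6 had lower means with GA3, and 4 fell, including GID1B and GID1A, against 0.685% of all tested probe sets. The median log2 change was -1.60, where that of all tested probe sets was 0.009. The list had been chosen with results of these arrays known, so its direction is not independent evidence.

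XERICO (AT2G04240), a RING-type gene that in Arabidopsis raises abscisic acid, had signals of 1987, 1879 and 1964 in mock and 528, 342 and 438 with GA3. The mock arrays hardly varied and the GA3 arrays all lay far below them, a log2 change of -2.18 ± 0.14 (SE, adjusted p = 2e-07). IQD22 (AT4G23060), a calmodulin-binding IQ-domain protein, had 691, 540 and 556 in mock and 250, 179 and 198 with GA3, a log2 change of -1.52 ± 0.23 (adjusted p = 0.0025). AT5G50915 had 1230, 1214 and 1237 in mock and 640, 848 and 669 with GA3. Its groups did not overlap, and at a log2 change of -0.78 ± 0.18 (SE) it lay just outside the threshold (adjusted p = 0.056), and it was called under 7 of 21 alternatives. AT2G31730 had overlapping groups (log2 change -0.38 ± 0.18, SE, adjusted p = 0.63).

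GASA peptides, small cysteine-rich proteins of which several are known GA targets, gave no call. Of 13 listed 3 were tested, with log2 changes from -0.28 for AT1G22690 to 0.12 for AT2G14900. Their smallest adjusted p was 0.70.

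**Figure D2:**
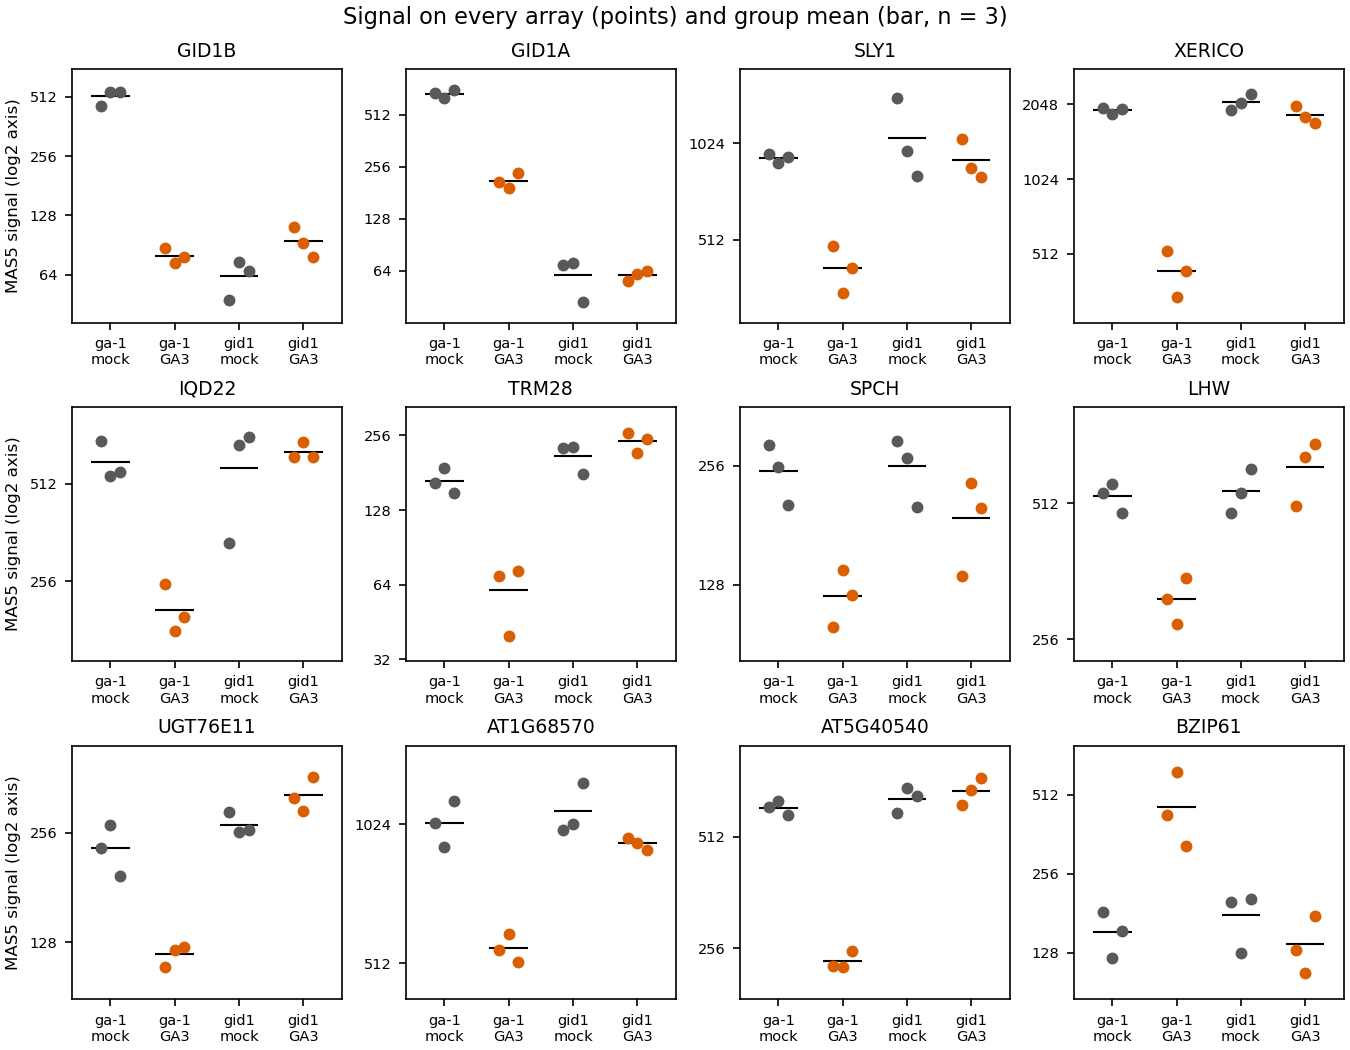
MAS5 signals on a log2 axis for 12 called genes, with every array as a point and the mean of each group of 3 as a bar, for ga-1 mock, ga-1 with GA3, gid1 mock and gid1 with GA3. In ga-1 the 3 GA3 arrays lie below the 3 mock arrays for 11 genes and above them for BZIP61, and in gid1 none of the 12 was called.

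Among transcription factors, a single family held several falls. Of 16 tested basic helix-loop-helix (bHLH) genes, 4 fell and none rose, where 0.685% of all tested probe sets fell. For 5 of the 16 the GA3 arrays lay wholly below the mock arrays, and for none wholly above, where the shares of all tested probe sets were 7.17% and 6.85%. The family's median log2 change was -0.19, with 11 members lower and 5 higher.

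The 4 that fell act in cell patterning or in the making of endoplasmic reticulum bodies. SPCH (AT5G53210, SPEECHLESS), which starts the lineage of cells that form stomata, had 289, 254 and 204 in mock and 100, 140 and 121 with GA3. The groups did not overlap, a log2 change of -1.05 ± 0.23 (SE, adjusted p = 0.042). LHW (AT2G27230, LONESOME HIGHWAY), which promotes cell divisions in the young vascular tissue, had 538, 564 and 488 in mock and 314, 276 and 350 with GA3, a log2 change of -0.76 ± 0.15 (adjusted p = 0.024).
ATMYC1 (AT4G00480), a factor in the patterning of trichomes and root hairs, had 336, 294 and 288 in mock and 186, 211 and 180 with GA3, a log2 change of -0.67 ± 0.14 (adjusted p = 0.038). NAI1 (AT2G22770), which is needed for these bodies, had 354, 362 and 550 in mock and 220, 190 and 283 with GA3, a log2 change of -0.86 ± 0.19 (adjusted p = 0.038). All 4 were close to the threshold, and over 21 alternative settings the calls of SPCH, NAI1, ATMYC1 and LHW were lost under 12, 14, 10 and 6.

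The family was matched by symbols and annotated names, so genes with neither a matching symbol nor a matching name are outside its count. Among those are AT5G50915, described above, and AT4G29100, which fell. AT4G29100 had 450, 446 and 410 in mock and 257, 216 and 226 with GA3, a log2 change of -0.90 ± 0.15 (SE, adjusted p = 0.0056). Of the remaining 12 matched bHLH genes, AT1G22490 was lowest, with a log2 change of -0.67 ± 0.27 (SE, adjusted p = 0.53) and no overlap. MUTE (AT3G06120), which acts after SPCH in the stomatal lineage, had 92.0, 44.4 and 49.2 in mock and 88.7, 12.1 and 66.2 with GA3. Its groups overlapped, with a log2 change of -0.50 ± 0.60 (SE), an error too wide to tell it from that of SPCH or from 0. MYC4, a jasmonate-response factor, was the highest at 0.47 ± 0.27 (SE, adjusted p = 0.75).

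In the bZIP family the single call was a rise. Of 16 tested members 1 rose and none fell, where 0.126% of all tested probe sets rose, and the other 15 had log2 changes between -0.19 for bZIP44 and 0.30 for AT2G21230. The member that rose, BZIP61 (AT3G58120), had the largest named rise. It had 183, 122 and 154 in mock and 428, 626 and 325 with GA3, a log2 change of 1.55 ± 0.27 (SE, adjusted p = 0.0068). The groups did not overlap, though the GA3 arrays spread widely, and without replicate 2 of the ga-1 mock group the adjusted p was 0.051.

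No matched member of the other transcription factor families was called. WRKY47 (AT4G01720) came nearest among 6 WRKY genes, with 496, 508 and 386 in mock and 228, 305 and 272 with GA3 (log2 change -0.79 ± 0.20, SE, adjusted p = 0.098). Among 9 LBD, TCP, SPL and MADS genes, AGL65 (AT1G18750) had the largest change. It had 87.5, 14.3 and 61.6 in mock and 104, 219 and 132 with GA3, a log2 change of 1.76 ± 0.53 (SE, adjusted p = 0.22). Its groups did not overlap, and 1 mock array was far below the others. The 4 AP2/ERF genes, 3 zinc finger genes and 3 GRAS genes other than DELLA had medians of -0.20, -0.23 and -0.54 and no call.

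In the cytoskeleton, 3 of 34 tested microtubule-related genes fell and none rose, where 0.685% of all tested probe sets fell and 0.126% rose. The family's median log2 change was -0.05, so the falls stand beside members that hardly moved. One was IQD22, described above. TRM28 (AT5G03670), of a family that recruits the TON1 complex to microtubules, had 165, 190 and 150 in mock and 69.5, 39.8 and 72.9 with GA3. The groups were far apart, with a log2 change of -1.52 ± 0.24 (SE, adjusted p = 0.0040). KICP-02 (AT3G50240), a kinesin gene, had 408, 369 and 392 in mock and 181, 287 and 209 with GA3, a log2 change of -0.82 ± 0.18 (adjusted p = 0.036). The call of KICP-02 was lost under 9 of 21 alternatives, among them each ga-1 mock array left out, with adjusted p up to 0.18, and that of TRM28 with the ga-1 arrays alone (adjusted p = 0.058).

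IQD24 (AT5G07240), another IQ-domain gene, did not overlap between groups. It had 506, 514 and 602 in mock and 344, 315 and 273 with GA3, a log2 change of -0.80 ± 0.21 (SE, adjusted p = 0.10). IQD16 had the lowest estimate of the family, -1.55 ± 0.89 (SE), but its groups overlapped and 1 GA3 array was at 5.5. The tubulin genes TUB1, TUB5, TUB6, TUB7, TUB9, TUA1 and TUA6 had log2 changes between -0.17 for TUB1 and 0.15 for TUA1, and none was called.

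Genes of wall loosening, often named in accounts of GA-driven growth, were not called at this time point. Of 14 expansins, proteins that loosen the wall, 3 had GA3 arrays wholly above the mock arrays and 1 wholly below, where 6.85% and 7.17% of all tested probe sets did, and the median was -0.02. EXLA2 (AT4G38400) had 158, 111 and 160 in mock and 306, 391 and 180 with GA3, a log2 change of 0.98 ± 0.25 (SE, adjusted p = 0.11). EXPA15 (AT2G03090) had 431, 568 and 394 in mock and 656, 662 and 672 with GA3, a log2 change of 0.53 ± 0.21 (adjusted p = 0.49). EXPA8 was the third with separate groups, at 0.89 ± 0.38 (SE, adjusted p = 0.56). The next highest member was EXPB1 at 0.21, and EXPA20 at -0.48 ± 0.22 was the lowest.

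Of 7 xyloglucan endotransglucosylase (XTH) genes, whose enzymes cut and rejoin wall xyloglucan, 5 were lower and 2 higher, with a median of -0.22. EXGT-A3 (AT2G01850) had 3840, 2762 and 3402 in mock and 2786, 2031 and 2416 with GA3, a log2 change of -0.47 ± 0.13 (SE, adjusted p = 0.15) with a slight overlap. XTH18 had 0.59 ± 0.23 (SE, adjusted p = 0.50). No call was made among 3 pectin genes with a matched symbol, 7 genes of cellulose and hemicellulose synthesis, 22 glycosyl hydrolases and 19 TBL genes of wall acetylation, with family medians from -0.24 to 0.00. Genes known by a locus code alone and without a matching annotated name are outside these counts, among them AT5G19730, which fell, and AT5G48900, which rose. The 7 genes of histones and replication had a median of 0.09 and no call.

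The auxin early-response genes moved both ways and none was called. GH3.3 (AT2G23170) was the highest, with 911, 916 and 1176 in mock and 1678, 1391 and 1323 with GA3. Its groups did not overlap (log2 change 0.55 ± 0.22, SE, adjusted p = 0.53). IAA29 (AT4G32280) had 224, 190 and 228 in mock and 401, 283 and 261 with GA3, above the mock arrays throughout (log2 change 0.54 ± 0.23, SE, adjusted p = 0.55). IAA18 (AT1G51950) had 808, 792 and 752 in mock and 580, 568 and 681 with GA3, below them throughout (-0.37 ± 0.14, SE, adjusted p = 0.45). IAA29 and IAA18 encode repressors of auxin response. The median over 7 tested genes was -0.04.

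In metabolism and transport, calls were rare. Of 32 UDP-glycosyltransferases, enzymes that attach sugars to small molecules, 1 fell and none rose, where 0.685% and 0.126% of all tested probe sets did. The GA3 arrays lay wholly below the mock arrays for 5 and wholly above for 1, where the shares of all were 7.17% and 6.85%. UGT76E11 (AT3G46670) had 233, 268 and 194 in mock and 109, 122 and 124 with GA3, a log2 change of -0.96 ± 0.17 (SE, adjusted p = 0.0094). The groups were clearly apart, and the call was lost without replicate 2 of the ga-1 mock group (adjusted p = 0.075) and in a fit of the ga-1 arrays alone. UGT76C2 (AT5G05860), which glucosylates cytokinins in Arabidopsis, had 523, 527 and 501 in mock and 266, 368 and 336 with GA3, a log2 change of -0.69 ± 0.17 (adjusted p = 0.096). UGT71C4 was opposite at 0.59 ± 0.15 (SE, adjusted p = 0.12).

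AT1G68570, annotated as NPF3.1 of the nitrate and peptide transporter family, fell. In Arabidopsis this carrier is known to move GA and abscisic acid into root endodermis cells. It had 1029, 914 and 1150 in mock and 548, 592 and 516 with GA3, a log2 change of -0.90 ± 0.13 (SE, adjusted p = 0.0016). The other 6 tested members of its family lay between -0.11 and 0.33, and none was called. Among 12 cytochrome P450 genes, CYP71B26 (AT3G26290) came nearest, with 827, 623 and 610 in mock and 445, 313 and 465 with GA3 (log2 change -0.76 ± 0.20, SE, adjusted p = 0.12).

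Among protein turnover genes matched to a family, no further member was called. XERICO and SLY1 were the falls among 19 matched E3 ligase and F-box genes, where 0.685% of all tested probe sets fell. Both also stand on the GA lists above, which were chosen with results of these data known. The median of the 19 was -0.03. Genes known by a locus code alone and not matched are outside this count. Among them are AT5G47610 and AT1G63840, which fell (log2 change -1.42 and -0.87, adjusted p = 0.00089 and 0.011). Of 23 ubiquitin-conjugating enzymes and ubiquitin proteases none was called, with a median of 0.07. CLE27 (AT3G25905), a small signalling peptide, had 120, 143 and 121 in mock and 66.3, 86.7 and 42.0 with GA3, separate groups without a call (log2 change -1.03 ± 0.29, SE, adjusted p = 0.16). It was 1 of 10 RALF-like and CLE peptides, which had a median of 0.00.

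Photosynthesis genes lay close to 0. Of 16 tested, 8 were higher and 8 lower, none had separate groups, and 15 lay between -0.15 and 0.15. The exception was CRR22 at 0.51 (adjusted p = 0.75). The 27 genes of vesicle traffic lay between -0.33 and 0.31. A much wider range was seen over 14 late-embryogenesis, cold-regulated and seed reserve genes, from -2.02 for ICL to 0.84 for OLEO3, with a median of -0.01, no separate groups and no call.

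**Figure D3:**
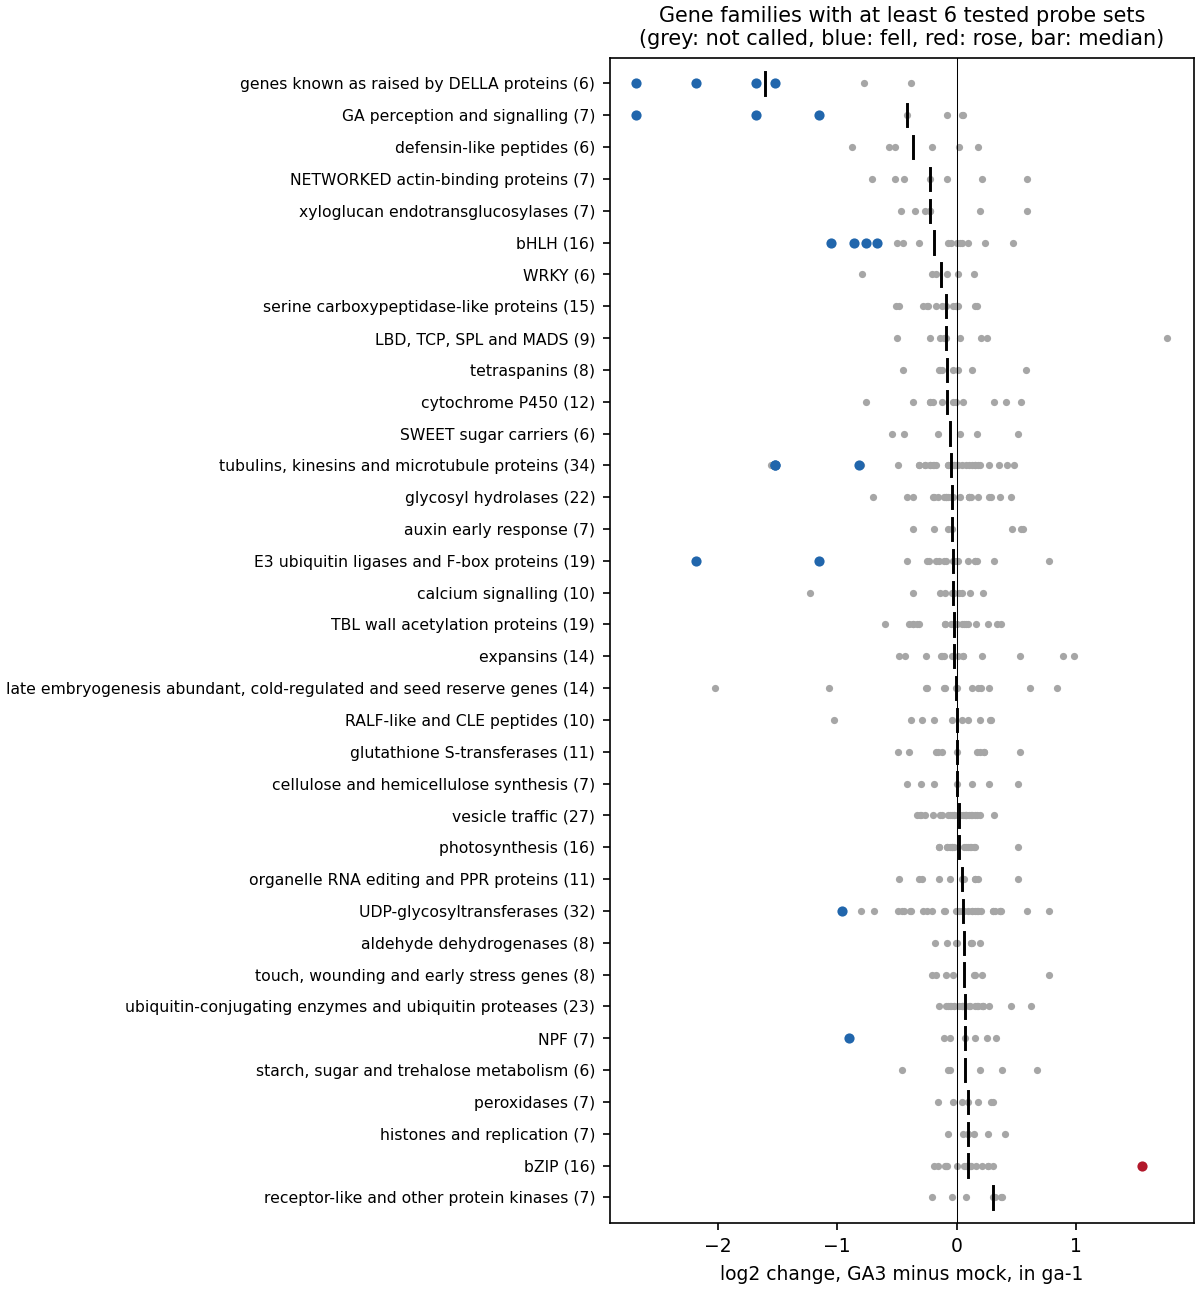
Log2 change between GA3 and mock in ga-1 (horizontal axis) for every tested member of each family with at least 6 tested probe sets, with the number tested in parentheses. Grey points were not called, blue points fell, red points rose and the black bar is the family median, and the lowest medians are -1.60 for the genes raised by DELLA proteins and -0.42 for GA perception.

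Across all families, few held a call. Of 68 families drawn up, 47 had at least 3 tested probe sets, and 8 of these had a call. The 39 without a call had medians between -0.54 and 0.30, and 35 of them lay between -0.25 and 0.25. The other families without a call included 11 glutathione S-transferases, 7 peroxidases, 4 flavonoid genes, 6 SWEET sugar carriers, 15 serine carboxypeptidase-like proteins and 8 tetraspanins. In the plot of families, the called members of the bHLH, microtubule, E3 ligase, UDP-glycosyltransferase, NPF and bZIP families lie at the edge of a family whose median is near 0.

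Some of the largest named falls carry only a locus code, with no role in the sources used here. AT1G17830 had 269, 210 and 205 in mock and 68.3, 14.8 and 72.3 with GA3, a log2 change of -2.43 ± 0.44 (SE, adjusted p = 0.011). The GA3 arrays were all low, with replicate 2 lower still. AT4G16447 had 410, 561 and 689 in mock and 158, 69.6 and 258 with GA3, a log2 change of -1.93 ± 0.32 (adjusted p = 0.0056). AT5G40540 had 617, 638 and 586 in mock and 229, 228 and 252 with GA3, a log2 change of -1.38 ± 0.13 (adjusted p = 1.3e-05). Its replicates lay close together, and its call was kept under all alternatives run. The call of AT1G17830 was lost under 3 of 20 alternatives, among them the ga-1 arrays alone and leaving out replicate 1 of ga-1 mock, with adjusted p up to 0.082. That of AT4G16447 was lost under 2 of 21, without the intensity trend and with the ga-1 arrays alone, with adjusted p up to 0.063.

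AT5G47610 had 607, 508 and 567 in mock and 206, 169 and 264 with GA3, a log2 change of -1.42 ± 0.19 (SE, adjusted p = 0.00089). AT3G60290 had 321, 337 and 247 in mock and 155, 74.7 and 94.8 with GA3, a log2 change of -1.53 ± 0.26 (adjusted p = 0.0056). Both had separate groups and kept their calls under all alternatives run. AT1G29270, AT1G21060, AT1G28190, AT5G25210 and AT1G60590 completed the 15 largest named falls, with log2 changes from -1.66 to -1.30 and adjusted p from 0.010 to 0.045. The call of AT5G25210 was lost under 16 of 20 alternatives and that of AT1G29270 under 8 of 21. Those of AT1G60590, AT1G28190 and AT1G21060 were lost under 6, 4 and 4 of 21.

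Further named genes with a known identity fell by less. ARPN (AT2G02850), a plantacyanin, which is a small copper protein of the wall space, had 966, 934 and 812 in mock and 474, 418 and 646 with GA3 (log2 change -0.84 ± 0.19, SE, adjusted p = 0.042). SOL1 (AT3G22760) had 625, 559 and 500 in mock and 341, 335 and 274 with GA3 (log2 change -0.83 ± 0.17, SE, adjusted p = 0.031). Both had separate groups. These genes were named after their values were seen, since they carry a symbol and belong to no family drawn up.

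The 6 named rises were BZIP61 and 5 genes known by locus code. AT1G78170 had 479, 645 and 506 in mock and 969, 979 and 1261 with GA3, a log2 change of 0.98 ± 0.18 (SE, adjusted p = 0.013). AT5G12050 had 657, 744 and 922 in mock and 1246, 1186 and 1437 with GA3, a log2 change of 0.75 ± 0.16 (adjusted p = 0.031). AT5G65300, AT5G48900 and AT5G45670 had log2 changes of 0.92 ± 0.20, 0.84 ± 0.18 and 0.66 ± 0.15 (SE), with adjusted p of 0.039, 0.031 and 0.044. All 6 had GA3 arrays wholly above mock arrays, and the calls of AT5G65300 and AT5G45670 were each lost under 11 alternatives. Those of AT5G12050, AT5G48900, AT1G78170 and BZIP61 were lost under 7, 6, 4 and 1.

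Unnamed probe sets held 74 of the 129 calls, 60 falls and 14 rises. Of the unnamed tested probe sets 1.03% were called, and of the named 0.627%, where the share of all was 0.81%. The largest fall of all was among them, with 3669, 3725 and 3378 in mock and 182, 180 and 197 with GA3, a log2 change of -4.27 ± 0.12 (SE). The next had 792, 744 and 724 in mock and 75.7, 31.2 and 89.7 with GA3, a log2 change of -3.66 ± 0.27 (SE). The largest unnamed rise had 527, 482 and 477 in mock and 1201, 1160 and 1003 with GA3, a log2 change of 1.18 ± 0.16 (SE, adjusted p = 0.0010). The groups of all these were widely separate, so the families above leave out the strongest changes on the array.

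In gid1 none of these genes was called after the same treatment. Among the 109 falls seen in ga-1, 105 had a gid1 log2 change between -0.5 and 0.5, and the whole range ran from -0.57 to 0.60. Of the 20 that rose, 19 lay within the same bounds, and the exception was AT5G12050 at -0.84 ± 0.16 (SE, adjusted p in gid1 = 0.37). The share of all tested probe sets within these bounds was not counted, so these counts do not set the called genes apart. The comparison within gid1 called 0 probe sets with limma. An unadjusted p under 0.05 was reached by 838 of 15922 probe sets in gid1 and by 1246 in ga-1.

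The difference of the responses was tested directly. It was called for 35 of 15922 probe sets (0.22%), and 31 of those were called in ga-1. GID1B differed by -3.28 ± 0.33 (SE, adjusted p = 0.00012), and the receptor genes are themselves mutated in gid1, where GID1B had signals of 47.5 to 112. XERICO had a gid1 log2 change of -0.17 and differed by -2.01 ± 0.20 (adjusted p = 0.00012), and AT5G40540 had 0.07 and differed by -1.45 ± 0.18 (adjusted p = 0.00088). IQD22, TRM28, UGT76E11 and BZIP61 also differed, with adjusted p of 0.030, 0.047, 0.047 and 0.047.

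Of the 129 probe sets called in ga-1, 31 passed this test and most did not. Several genes named above were among those that did not. SLY1 had a gid1 log2 change of -0.20 and differed by -0.95 ± 0.26 (SE, adjusted p = 0.24). AT1G68570 had -0.22 and differed by -0.68 ± 0.18 (adjusted p = 0.24). SPCH had -0.45 ± 0.23 (SE, adjusted p in gid1 = 0.94), with overlapping gid1 groups, and differed by -0.60 ± 0.33 (adjusted p = 0.79). Its mean was thus lower with GA3 in both mutants, but in gid1 without a call. LHW, ATMYC1 and NAI1 had gid1 log2 changes of 0.17, 0.23 and 0.14 and differed by -0.93, -0.89 and -1.0, with adjusted p of 0.12, 0.11 and 0.22. For these bHLH genes a response particular to ga-1 was not shown.

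**Figure D4:**
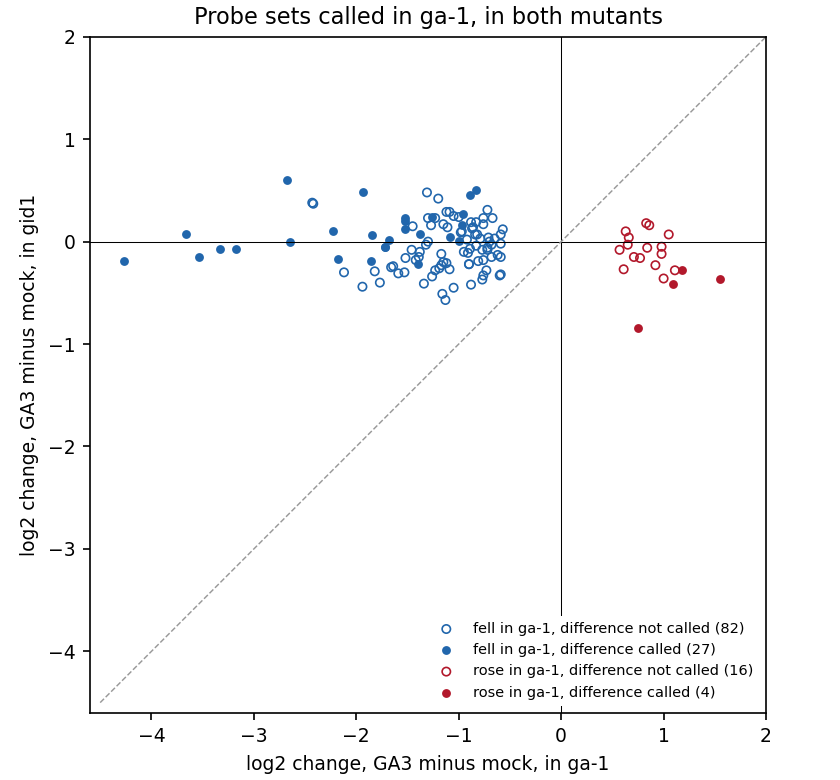
Log2 change with GA3 in ga-1 (horizontal axis) and in gid1 (vertical axis) for the 129 probe sets called in ga-1, with those whose difference of responses was also called filled (27 that fell and 4 that rose). The dashed line marks equal changes; the points lie along the horizontal zero line, with gid1 changes between -0.84 and 0.60.

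Markers of tissues and handling were examined beside these results. Of 6 green-tissue markers 1 was measured, RCA (AT2G39730), which activates Rubisco, with 21729 to 24793 in ga-1 mock and 20341 to 27565 with GA3. Of 7 root markers 2 were measured, the root-hair expansins EXPA7 and EXPA18, with summed signals of 226 to 293 in mock and 190 to 242 with GA3. Of 8 touch and handling genes 2 were measured, with sums of 240 to 347 in mock and 327 to 437 with GA3. None of these markers was called.

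The summed signal of seed markers was high on 1 ga-1 mock array and on the gid1 arrays with GA3. Of 18 listed 6 were measured, and their summed signal was 414, 2706 and 868 in the ga-1 mock arrays and 477, 591 and 721 with GA3. Replicate 2 of the mock group was high through AT3G02480, at 1714 against 188 and 538, and ICL, a glyoxylate cycle enzyme of germinating seeds, at 508 against 16 and 156. PAP85 was at 199 there and at 27.9 to 111 on the other ga-1 arrays, and AT2G28490 at 149 and at 2 to 73.5. AT1G03890 stayed at 3.4 to 12.8 on all 6. AT4G36700 went otherwise, with 122, 131 and 99.8 in ga-1 mock and 139, 212 and 246 with GA3. The gid1 groups of AT4G36700 and AT1G03890 overlapped. In gid1 the sums were 435, 247 and 566 in mock and 1772, 4232 and 3185 with GA3, so the sums of the groups did not overlap. Of the sums with GA3, AT3G02480 alone made up 1059, 3040 and 1810. AT3G02480 had a log2 change of -1.25 ± 0.57 in ga-1 and 3.52 ± 0.57 in gid1 (SE), and its difference of responses was called (-4.77 ± 0.80, adjusted p = 0.018). The part of these transcripts in the results, the difference of responses included, was not tested. Without replicate 2 of ga-1 mock, 66 probe sets were called, 62 that fell and 4 that rose, of which 63 were among the 129.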

How the data were processed

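Seedlings of both mutants, ga-1 and gid1, had been mock-treated or given GA3, with 3 arrays in each of 4 groups, taken from the sample titles. The submitters' processing notes name MAS5, without a version, and the deposited intensity values are linear MAS5 signals. Leaving out the top and bottom 2%, each array had a mean of 500.0, so the authors had scaled the arrays to a common level, and that scaling was kept. No scanner file was used here.

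Signals below 1 were set to 1 before log2. The 64 control probe sets were left out, as were those whose mean log2 fell under the 30th percentile, 5.55. In R 4.3.3, limma 3.58.1 (lmFit, then eBayes with an intensity trend) was fitted with a mean for each of the 4 groups to all 12 arrays, which share the estimate of spread. P-values were adjusted by Benjamini-Hochberg over all 15922 tested probe sets. Contrasts were GA3 minus mock in ga-1, in gid1, and their difference. The fit was checked on simulated arrays.

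Names came from the annotation of the platform, updated through a gene table of TAIR10.1. A single symbol was found for 13513 probe sets and several for 503, and 8730 were unlisted. Families were drawn up by symbol patterns, annotated names or locus codes, and corrected and extended after the names were seen. The families, gene lists and the rule for named genes were chosen with earlier results of these data known, so none is independent support. By that rule the picks were the 15 largest falls and up to 10 rises with 1 symbol. Of each family up to 4 called members were picked, or else the 2 with the smallest p. All tested genes of the GA lists were picked too. Not every pick without a call is named in the text. Other members are named for their place in a family's range. For families, counts and medians are given beside those of all tested probe sets, with no set test.

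Alternatives were quantile normalization, median centring, no low-value filter or one at the 50th percentile, log2(value + 32), eBayes without the trend, weights for each array, a block for the replicate number, the ga-1 arrays alone, each array left out, an adjusted p under 0.01 and a 2-fold limit. The last 2 were applied to counts of calls. A planned search of promoter motifs was not run.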

Additional observations from a re-analysis of the deposited data

Results flagged for a closer look

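The difference of responses, the GA3 change in ga-1 minus that in gid1 on the log2 scale, was called for 35 probe sets. Among the genes with 1 symbol that were also called in ga-1, limma called it for 10. There were 8 negative differences. The receptor genes had -3.28 (GID1B) and -1.70 (GID1A). Both are mutated in gid1, where their mock means were 62.9 and 60.7, against 514 and 679 in ga-1 mock. For these genes a lack of response in gid1 cannot be told apart from the loss of their own signal there. XERICO had -2.01. The microtubule-related genes IQD22 and TRM28 had -1.75 and -1.72, and UGT76E11 had -1.23. Of the genes known by locus code, AT4G16447 had -2.42 and AT5G40540 had -1.45. The positive ones were 1.91 for BZIP61 and 1.59 for AT5G12050. AT5G12050 was higher with GA3 in ga-1 (log2 0.75) and lower in gid1 (-0.84). For AT4G16447 the signs were the reverse, -1.93 and 0.48. The seed marker AT3G02480, not called in ga-1, also differed, by -4.77. Groups of 3 arrays were too small to test single arrays as outliers.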

How the results depend on the processing

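The ga-1 comparison called 129 probe sets, and between 107 and 127 under median centring, quantile normalization, a stricter filter or none, an offset of 32 before log2 and the replicate block, 97 with the ga-1 arrays alone and 183 with array weights. It called 60 without the intensity trend, 57 at an adjusted p under 0.01 and 67 with a 2-fold limit. Leaving out single arrays gave 66 to 130. Without ga-1 mock replicates 1, 2 and 3 the counts were 70, 66 and 70, and the rises were 5, 4 and 13. Falls made up 81.4% to 94.1% of the calls over all alternatives.

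The difference of responses called 35 probe sets, 12 without the trend and 15 at an adjusted p under 0.01, and 17 to 65 when an array was left out. It was 65 without ga-1 GA3 replicate 3, 17 and 22 without ga-1 mock replicates 2 and 3, 21 without ga-1 GA3 replicate 1, 19 and 20 without replicates 2 and 3 of gid1 with GA3, and 20 without replicate 1 of gid1 mock. The causes of these shifts were not tested.

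Same-numbered ga-1 arrays did not deviate together, with correlations of deviations of -0.032, -0.060 and -0.125, and 0 of 6 arrays correlated best with the array of its own number. They share only a number. With the replicate block 107 probe sets were called in ga-1 and 30 in the difference.

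Of 29 called genes named by the rule, 9 kept their call under every alternative, 5 lost it under at least 50% of them, and none changed direction. Of the 83 picked by the rule and not called, 4 were called under some alternative. Few arrays and low signals limit what could be called.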
